A study of Mus musculus with 12 samples.

Results

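The genes described here encode the enzymes of glycolysis, their glucose and lactate transporters, the oxidative and non-oxidative pentose phosphate enzymes, and regulators and targets of the hypoxia response. They were taken by symbol from the deposited count table, which lists all 34 of them among 19910 genes. Of the 34, 32 passed the filter on low counts and were tested. RNA was sequenced from mouse bone marrow of strain C57Bl/6 in 12 libraries, 3 in each of 4 groups. Marrow of female C57BL/6J mice aged 6 to 10 weeks was transduced with 2 retroviral vectors, made in 293T17 packaging cells. The group called empty received 2 empty vectors, the SETBP1 group mutant SETBP1 (D868N) and an empty vector, the NRAS group mutant NRAS (G12D) and an empty vector, and the SETBP1+NRAS group both mutants. All 4 groups therefore share transduction with the vectors, and the labels call the cells murine leukemia cells. Whether the 3 libraries of a group stem from different animals, infections or dishes is not stated, so p-values measure only the spread between these libraries, which may be technical.

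Glycolysis splits glucose into pyruvate in the cytosol, and lactate dehydrogenase turns pyruvate into lactate, which leaves the cell through monocarboxylate transporters. The pentose phosphate pathway branches off glucose 6-phosphate and supplies NADPH and ribose phosphate, the first of which neutrophils and macrophages use for their oxidative burst. The hypoxia-inducible factor HIF-1 is a dimer whose alpha subunit is destroyed in the presence of oxygen after prolyl hydroxylation, and which otherwise binds short motifs near genes of glycolysis, angiogenesis and mitophagy.

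Depth ranged from 7085894 to 8864919 counts per library. As a check of the labels, mouse Nras stood between 82.0 and 93.0 CPM (counts relative to the library's total, scaled for composition) in the 6 libraries without the NRAS vector and between 1423 and 1712 CPM in the 6 with it. Setbp1 had 0 counts in the 6 libraries without its vector, 5 to 7 with SETBP1 and 11 to 17 with both. The third SETBP1 library stood apart: its log2 CPM correlated at 0.951 and 0.958 with the other two of its group, against 0.986 to 0.992 for every other pair within a group. In that library transcripts over 4000 bases lay at a median of -0.29 and those under 1500 bases at 0.16 on the log2 scale relative to its group. It was the highest of the 12 libraries for 11 and the lowest for 7 of the 32 tested genes of the set, as against 25.9% and 27.5% of all genes tested. Bulk RNA cannot tell fewer cells of a type from less RNA per cell. Marker sums for other cell types therefore stand beside the results near the end.

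In the NRAS group, glucose carriers, the hexokinase Hk3 and 3 of 4 tested genes of lower glycolysis rose, 3 of 4 pentose phosphate genes fell, and the minor isozymes Ldhb and Aldoc fell most. Against empty vectors, 10 of the 32 tested genes rose and 8 fell (adjusted p under 0.05, edgeR quasi-likelihood test with Benjamini-Hochberg adjustment over 10993 genes). Over all genes tested, 32.5% passed, 17% higher and 15.5% lower. Scaling to library size only gave 8 higher and 13 lower, and upper quartile scaling 9 and 11. Over all 10993 genes library size scaling gave 1379 higher and 2265 lower, and upper quartile scaling 1577 and 2043. With both mutants against empty, 11 rose and 10 fell, where 40.6% of all genes passed, 20.8% higher and 19.8% lower. The SETBP1 group showed 8 higher and 3 lower, where 14.9% of all genes passed, 8.31% higher and 6.55% lower. These 3 comparisons share the same empty libraries.

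The 2 mutants together differed from NRAS alone in 1 gene of the set, Slc2a3, which was lower. In that comparison 1.91% of all genes passed, 0.528% higher and 1.38% lower. Against SETBP1 alone, 9 genes were higher and 12 lower with both mutants, where 42.4% of all genes passed, 20.9% higher and 21.5% lower. No gene of the set passed the interaction test, which asks whether the SETBP1 change on the log2 scale differs with and without NRAS, and 0.0455% of all genes did. At the adjusted threshold DESeq2 called 1 gene of the set (Vegfa) and limma-voom 0. At an unadjusted p under 0.05 the counts were 4 of 32 in edgeR, 4 in DESeq2 and 3 in limma-voom, where edgeR had 1420 of all 10993 genes, about the same share. The median log2 change of the 32 genes was -0.02 with NRAS and 0.06 with SETBP1, against -0.01 in each over all genes tested.

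**Figure D1:**
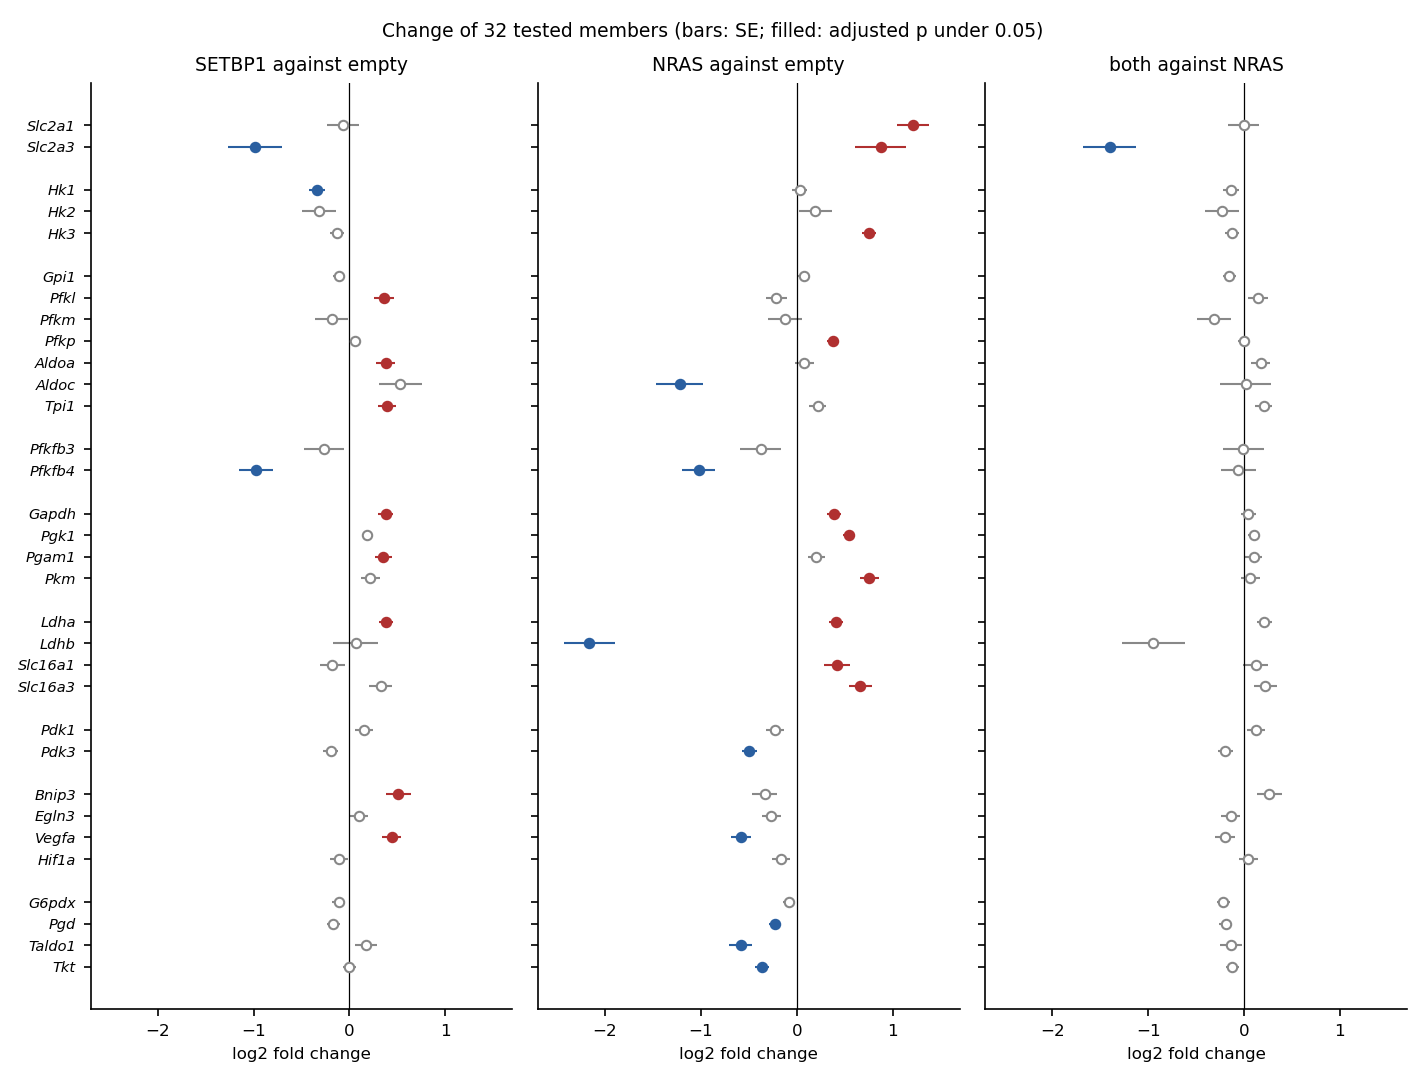
Log2 fold change (x axis) of the 32 tested genes, grouped by role, in 3 comparisons; bars are standard errors and filled points passed the adjusted p threshold of 0.05 (red higher, blue lower). In NRAS against empty the transporters and lower glycolysis lie to the right and the pentose phosphate genes to the left, while in both against NRAS only Slc2a3 passed.

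The glucose carrier genes of the set are Slc2a1 (GLUT1, chr4:119108711-119137983, + strand, GRCm38) and Slc2a3 (GLUT3, chr6:122727809-122801640, - strand). Glucose uptake was not measured. Slc2a1 stood at 112, 115 and 102 CPM with empty vectors, 127, 119 and 67.4 with SETBP1, 246, 254 and 261 with NRAS, and 273, 238 and 249 with both. Every library with NRAS lay above every library without it. The increase with NRAS was 2.32-fold (log2 change 1.21, SE 0.17, adjusted p = 9.68e-05, edgeR with Benjamini-Hochberg). Adding SETBP1 to NRAS left the log2 change at -0.00, with a 95% interval of -0.32 to 0.32.

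Slc2a3, the high-affinity carrier, took a different course. It stood at 52.2, 50.7 and 59.7 CPM with empty vectors, 41.9, 26.5 and 13.7 with SETBP1, 79.9, 93.9 and 124 with NRAS, and 33.7, 37.8 and 41.3 with both. The NRAS libraries lay above, and the SETBP1 and SETBP1+NRAS libraries below, all empty libraries. Slc2a3 rose with NRAS by 0.88 on the log2 scale (SE 0.27, adjusted p = 0.0226) and was lower with both mutants than with NRAS by 1.40 (log2 change -1.40, SE 0.28, adjusted p = 0.017, 2.64-fold lower; edgeR, Benjamini-Hochberg). With SETBP1 alone it fell by 0.98 (SE 0.28, adjusted p = 0.0328). Without the third SETBP1 library that change was -0.66 (adjusted p = 0.0182). The fall with SETBP1 therefore appeared with and without NRAS, and the interaction was -0.42 (95% interval -1.18 to 0.35, adjusted p = 0.653). The call against NRAS was lost without NRAS replicate 2 (adjusted p = 0.0536), NRAS replicate 3 (0.0918) or any SETBP1+NRAS replicate (0.0593 to 0.11), with the log2 change between -1.47 and -1.21. The NRAS call was lost under library size scaling (0.0543) and without empty replicate 1 (0.0771), empty replicate 2 (0.0779) or NRAS replicate 3 (0.11), and the SETBP1 call without any empty replicate (0.0625 to 0.12) or SETBP1 replicate 2 (0.0704).

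Per kilobase of transcript, Slc2a1 was the more abundant carrier in every group, at 33.6 ± 2.15 (SD, n = 3) against 13.7 CPM per kilobase for Slc2a3 with empty vectors, and at 77.7 against 9.49 with both mutants. The difference of Slc2a3 minus Slc2a1, as log2(CPM + 0.5), was -1.01 with empty vectors, -2.00 with SETBP1, -1.37 with NRAS and -2.74 with both. With 3 libraries against 3, the exact permutation test, two-sided, cannot go below p = 0.1, and 9 isozyme pairs over 5 comparisons made 45 such tests with a lowest adjusted value of 0.155. The change of this balance between SETBP1+NRAS and NRAS was -1.37, at that lowest value. A change of -0.144 for Pfkp minus Pfkl in the same comparison had the same value. The test therefore cannot set 1 such change above another.

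Hexokinases trap glucose as glucose 6-phosphate. Hk3, the isozyme typical of myeloid cells (chr13:55005985-55021385, - strand), stood at 498, 446 and 506 CPM with empty vectors, 437, 459 and 433 with SETBP1, 746, 870 and 821 with NRAS, and 750, 730 and 751 with both. It rose 1.68-fold with NRAS (log2 change 0.75, SE 0.07, adjusted p = 4e-06, edgeR with Benjamini-Hochberg), with no overlap between the groups. Hk1, the housekeeping isozyme, did not pass with NRAS (log2 change 0.03, SE 0.08) and fell by 0.34 with SETBP1 (SE 0.08, adjusted p = 0.0178). Hk2, the inducible isozyme and a textbook HIF-1 target, read 60.2, 61.2 and 49.9 CPM with empty vectors, 49.7, 57.4 and 30.6 with SETBP1, 70.3, 62.6 and 63.4 with NRAS, and 60.1, 57.1 and 49.9 with both, and passed in no comparison. In CPM per kilobase, Hk3 led with 150 in empty and 252 in NRAS libraries, Hk1 had 74.7 and 76.2, and Hk2 had 10.4 and 11.9.

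In upper glycolysis, the phosphofructokinase genes divided by isozyme. Pfkp, the platelet form, rose by 0.37 with NRAS (SE 0.06, adjusted p = 0.00022) and by 0.37 with both mutants (adjusted p = 0.00016, edgeR with Benjamini-Hochberg). Its libraries read 372, 376 and 361 CPM with empty vectors and 476, 477 and 484 with NRAS. Pfkl, the liver form, was higher with SETBP1 alone (log2 change 0.36, SE 0.10, adjusted p = 0.0339), at 310, 385 and 452 CPM against 294, 305 and 293 with empty vectors. It was lower with both mutants than with SETBP1 (log2 change -0.43, adjusted p = 0.0047). Pfkm, the muscle form, read 18.1, 20.7 and 19.7 CPM with empty vectors, 18.3, 20.5 and 12.7 with SETBP1, 18.2, 17.1 and 18.5 with NRAS, and 15.9, 12.3 and 15.2 with both, and passed in no comparison.

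Aldolase splits fructose 1,6-bisphosphate. Aldoa, the main isozyme, rose by 0.38 with SETBP1 (SE 0.10, adjusted p = 0.026) and read 0.08 with NRAS (SE 0.10, not past). Aldoc, the brain isozyme (chr11:78322968-78327781, + strand), stood at 7.74, 11.1 and 8.5 CPM with empty vectors, 13.3, 10.5 and 15.6 with SETBP1, 3.04, 3.92 and 4.69 with NRAS, and 3.78, 3.46 and 4.58 with both. Every library with NRAS was below every library without it. The fall with NRAS was 2.33-fold (log2 change -1.22, SE 0.25, adjusted p = 0.0018, edgeR with Benjamini-Hochberg), at 23 to 132 counts per library. Tpi1, triose phosphate isomerase, read 690, 707 and 612 CPM with empty vectors, 799, 823 and 1014 with SETBP1, 819, 785 and 732 with NRAS, and 893, 873 and 926 with both. It rose with SETBP1 (0.39, adjusted p = 0.0159) and with both mutants (0.42, adjusted p = 0.00222), and Gpi1, glucose phosphate isomerase, passed in no comparison.

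Pfkfb3 and Pfkfb4 make the bifunctional enzymes that set fructose 2,6-bisphosphate, the main activator of phosphofructokinase. Pfkfb4 (chr9:108991778-109032228, + strand) stood at 32.5, 29.5 and 28.6 CPM with empty vectors, 13.4, 14.1 and 18.6 with SETBP1, 11.4, 15.8 and 17.4 with NRAS, and 14.3, 12.9 and 15.6 with both. All 9 libraries with a mutant lay below all 3 empty libraries, and the 3 mutant groups overlapped each other. It fell 1.97-fold with SETBP1 (log2 change -0.98, SE 0.18, adjusted p = 0.00491), 2.03-fold with NRAS (-1.02, SE 0.18, adjusted p = 0.00056) and 2.12-fold with both (-1.08, SE 0.18, adjusted p = 0.000256; edgeR, Benjamini-Hochberg). These changes share the empty libraries. The interaction for Pfkfb4 was 0.92 (SE 0.25, adjusted p = 0.208), and 1.08 (SE 0.23, adjusted p = 0.0236) without the third SETBP1 library. Pfkfb3 ranged from 19.2 to 41.3 CPM and passed in no comparison.

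The payoff steps from glyceraldehyde 3-phosphate to pyruvate rose with NRAS in 3 of 4 tested genes and with both mutants in 4 of 4. Over all genes tested, 17% were higher with NRAS and 20.8% with both. Pgk1, phosphoglycerate kinase and the first ATP-yielding step (chrX:106187100-106203699, + strand), read 252, 270 and 259 CPM with empty vectors, 294, 288 and 307 with SETBP1, 391, 376 and 370 with NRAS, and 413, 397 and 414 with both. Its increase with NRAS was 1.46-fold (log2 change 0.54, SE 0.06, adjusted p = 1.55e-05, edgeR with Benjamini-Hochberg). The libraries form separate levels without and with NRAS.

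Pkm, pyruvate kinase of the last step (chr9:59656368-59679375, + strand), read 2205, 2271 and 2167 CPM with empty vectors, 2330, 2313 and 3077 with SETBP1, 3572, 3620 and 4024 with NRAS, and 3865, 3784 and 4068 with both. It rose 1.69-fold with NRAS (log2 change 0.76, SE 0.10, adjusted p = 6.13e-05, edgeR with Benjamini-Hochberg). The third SETBP1 library lay between the other SETBP1 libraries and the NRAS libraries. Gene counts do not separate the M1 and M2 splice forms of this gene. Gapdh, which oxidises glyceraldehyde 3-phosphate, read 2003, 2046 and 1866 CPM with empty vectors, 2359, 2459 and 2858 with SETBP1, 2636, 2530 and 2581 with NRAS, and 2719, 2688 and 2590 with both. It rose in all 3 mutant groups, by 0.38 with SETBP1, 0.39 with NRAS and 0.43 with both (adjusted p = 0.00818, 0.00136 and 0.000425). Pgam1 rose with SETBP1 (0.35, adjusted p = 0.0183) and with both (0.31, adjusted p = 0.0112), and read 0.21 with NRAS (adjusted p = 0.0839). With both mutants Pgam1 read 0.19 under library size scaling (adjusted p = 0.0415) and lost its call without empty replicate 3 (0.27, adjusted p = 0.057).

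Several of these enzymes have processed pseudogenes, and no rule for reads that map to several places is given in the sources used here. Of the 50-base stretches of the Gapdh transcript, 82.5% also occur in another gene's transcripts, as do 68.0% for Pgk1, 41.5% for Pgam1, 34.4% for Pkm, 27.0% for Ldhb and 17.1% for Ldha. Their counts are therefore uncertain in level. For the enolase step no usable value was obtained: Eno1, the ubiquitous isozyme, is listed with 0 to 2 counts per library, and 70.5% of its stretches occur in the near-identical Eno1b, itself at 0 to 7 counts. Eno2, the neuronal isozyme, had 0 to 12 counts. Neither was tested.

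Lactate dehydrogenase is a tetramer of A and B subunits, the A form favouring lactate production. Ldha (chr7:46841475-46855627, + strand) read 2599, 2707 and 2533 CPM with empty vectors, 3114, 3297 and 3793 with SETBP1, 3572, 3484 and 3370 with NRAS, and 4058, 3919 and 4113 with both. All 9 libraries with a mutant exceeded the empty ones, and the SETBP1 and NRAS libraries overlapped. Ldha rose 1.33-fold with NRAS (log2 change 0.41, SE 0.08, adjusted p = 0.000875), 1.30-fold with SETBP1 (0.38, SE 0.08, adjusted p = 0.00761) and 1.54-fold with both (0.63, SE 0.08, adjusted p = 1.8e-05; edgeR, Benjamini-Hochberg). Both against NRAS gave 0.21 (SE 0.07, adjusted p = 0.222), and 0.0125 as the adjusted p without the third SETBP1 library. That library is in neither group compared but enters the shared estimate of the spread. Leaving it out raised the share of all genes past the threshold there from 1.91% to 7.52%.

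Ldhb (chr6:142490249-142507957, - strand) showed the largest change of the set. It read 19.4, 20.95 and 19.8 CPM with empty vectors, 17.9, 16.5 and 28.4 with SETBP1, 5.42, 3.92 and 4.06 with NRAS, and 1.68, 3.46 and 1.75 with both. Its counts ran from 12 to 240 per library. No library with NRAS reached the lowest library without it, and the SETBP1+NRAS libraries lay below all NRAS libraries. The fall was 4.48-fold with NRAS (log2 change -2.16, SE 0.27, adjusted p = 3.31e-05) and 8.62-fold with both (-3.11, SE 0.29, adjusted p = 1.75e-06; edgeR, Benjamini-Hochberg). The further difference between both and NRAS, -0.94 (SE 0.33), did not pass (adjusted p = 0.211), and passed at 0.0391 without the third SETBP1 library. As said for Ldha, that library is in neither group compared, and calls rose over all genes without it. Per kilobase, Ldha stood at 1480 and Ldhb at 15.4 CPM in empty libraries, so the B form was a small part of the sum before its fall. The difference Ldhb minus Ldha, as log2(CPM + 0.5), moved from -6.99 to -7.35 with SETBP1, -9.46 with NRAS and -10.6 with both.

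The monocarboxylate transporter genes rose with NRAS in both cases, where 17% of all genes were higher. Slc16a3 (MCT4, the low-affinity lactate exporter, chr11:120948480-120960868, + strand) read 139, 136 and 134 CPM with empty vectors, 143, 168 and 202 with SETBP1, 211, 211 and 227 with NRAS, and 261, 213 and 283 with both. Its increase with NRAS was 1.58-fold (log2 change 0.66, SE 0.12, adjusted p = 0.000797, edgeR with Benjamini-Hochberg), without overlap. Slc16a1 (MCT1, which carries lactate in either direction) rose by 0.42 (SE 0.13, adjusted p = 0.0252), from 142, 145 and 165 CPM to 186, 209 and 210. That call was lost with library size scaling (adjusted p = 0.117), with upper quartile scaling (0.0582), and without empty replicate 1 (0.0972), empty replicate 2 (0.0853), NRAS replicate 2 (0.0788) or NRAS replicate 3 (0.0816). With both mutants it rose by 0.54 (SE 0.13, adjusted p = 0.00471).

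**Figure D2:**
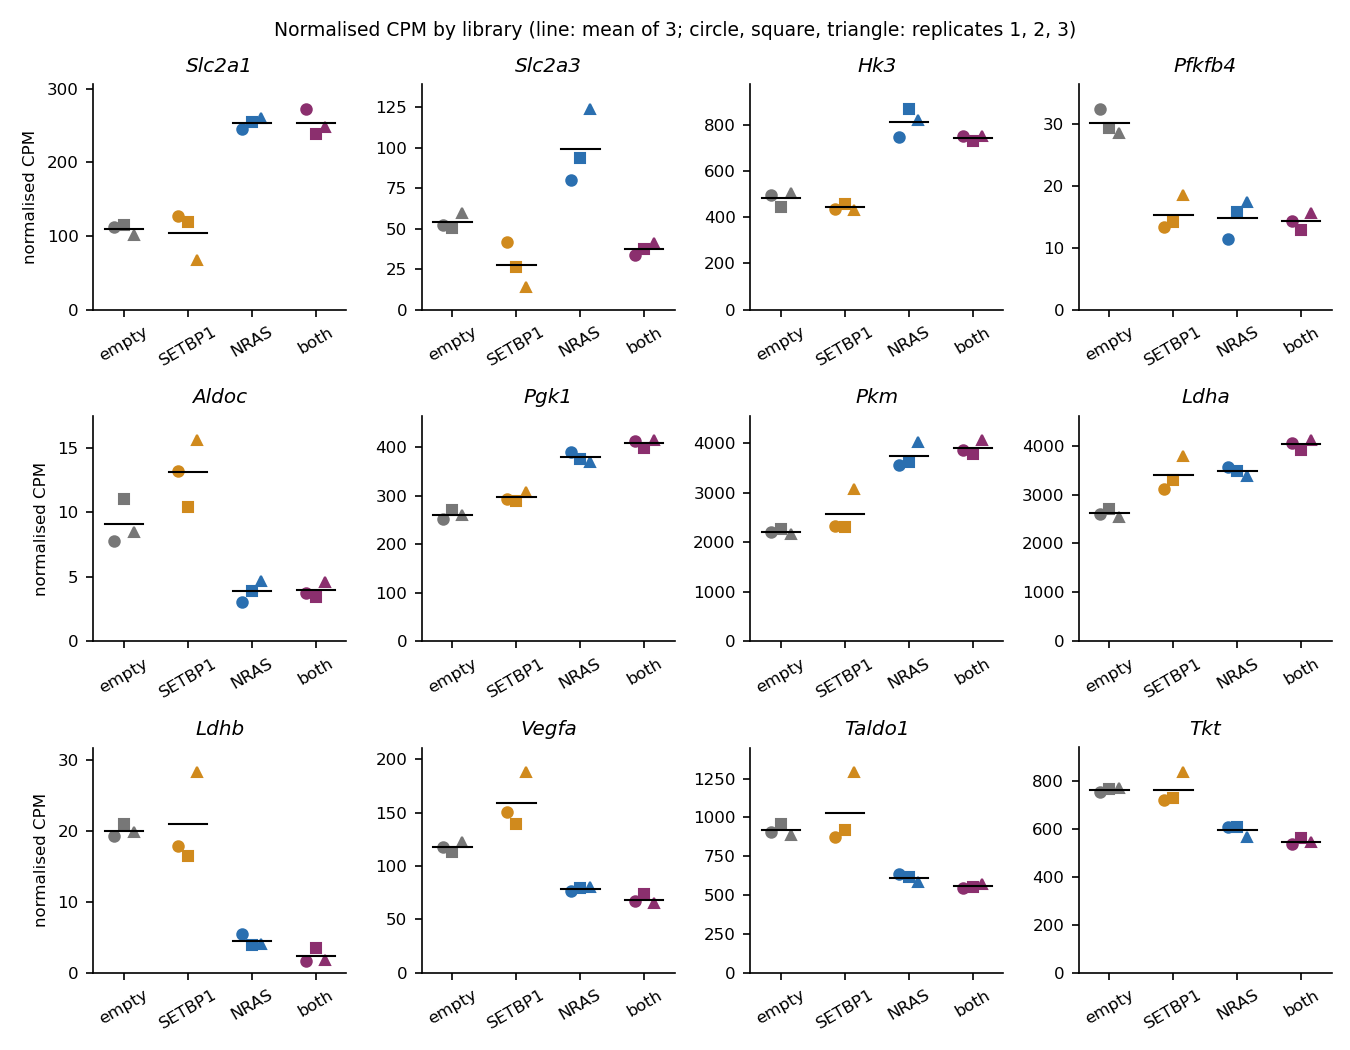
Composition-scaled CPM (y axis from 0) of 12 genes of the set in each library, by group; the line is the mean of 3 libraries and the symbol shape gives the replicate number. Slc2a1, Hk3, Pgk1 and Pkm step up and Aldoc, Ldhb, Vegfa, Taldo1 and Tkt step down with NRAS, Pfkfb4 is lower in every mutant group, and Slc2a3 is highest in the NRAS libraries.

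**Figure D3:**
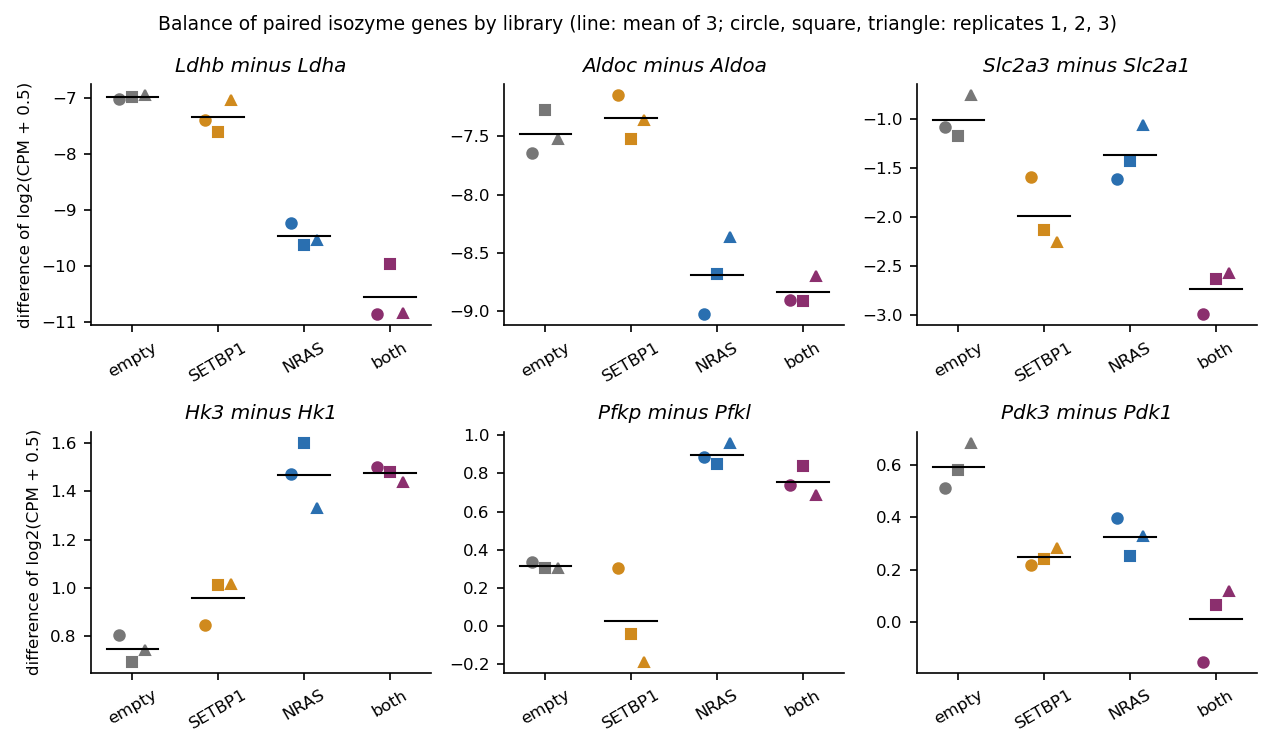
Difference of log2(CPM + 0.5) between paired isozyme genes in each library; the line is the mean of 3 and gene length is not accounted for, so only changes between groups can be read. Ldhb minus Ldha falls from a mean of -6.99 in empty to -10.6 with both mutants, and Hk3 minus Hk1 rises from 0.746 to 1.47.

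Pyruvate dehydrogenase kinases switch off the entry of pyruvate into the citric acid cycle. Pdk3 fell by 0.49 with NRAS (SE 0.08, adjusted p = 0.000327) and by 0.69 with both mutants (SE 0.08, adjusted p = 1.32e-05, edgeR with Benjamini-Hochberg). Its libraries read 151, 144 and 168 CPM with empty vectors, 139, 126 and 139 with SETBP1, 110, 107 and 112 with NRAS, and 96.8, 91.1 and 99.6 with both. Pdk1, a textbook HIF-1 target, read -0.22 with NRAS (SE 0.09, adjusted p = 0.0755) and was lower with both mutants than with SETBP1 (-0.25, adjusted p = 0.0405), with overlapping libraries. The Pdk1 call was lost when any of 5 libraries was left out: SETBP1+NRAS replicate 2 (adjusted p = 0.172) or 3 (0.13), SETBP1 replicate 1 (0.0834), and NRAS replicate 1 (0.0536) or 2 (0.0573).

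Among 12 other tested genes of pyruvate entry and its control, 1 rose and 4 fell with NRAS (41.7%), where 32.5% of all genes passed. Mpc2, a subunit of the mitochondrial pyruvate carrier, fell by 0.65 (SE 0.13, adjusted p = 0.00164), from 96.2 ± 2.28 to 61.5 ± 7.23 CPM (SD, n = 3). Pcx, pyruvate carboxylase, fell by 0.78 with NRAS and by 0.80 with SETBP1 (adjusted p = 0.0248 and 0.0425), at 7.38 ± 0.578 CPM with empty vectors. Pdp1, a phosphatase that switches pyruvate dehydrogenase back on, read 0.73 with NRAS (adjusted p = 0.0641) and rose by 0.83 with both (adjusted p = 0.03, edgeR with Benjamini-Hochberg).

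The hypoxia genes did not move as 1 block. Hif1a, the oxygen-controlled subunit of HIF-1, ranged from 285 to 383 CPM and passed in no comparison, with a log2 change of -0.16 (SE 0.10) under NRAS. It passed in both against SETBP1 only once a trend with transcript length and GC content was removed. Its transcript level does not report the protein, which is set by degradation. Vegfa, the vascular growth factor (chr17:46016993-46032369, - strand), read 118, 113 and 122 CPM with empty vectors, 150, 140 and 189 with SETBP1, 76.6, 79.3 and 80.2 with NRAS, and 66.9, 73.9 and 65.0 with both. The groups formed separate ranges, highest with SETBP1 and lowest with both mutants.

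Vegfa fell 1.5-fold with NRAS (log2 change -0.58, SE 0.105, adjusted p = 0.000794), rose 1.36-fold with SETBP1 (0.44, SE 0.10, adjusted p = 0.0158), and was 2.33-fold lower with both than with SETBP1 (-1.22, SE 0.105, adjusted p = 9.74e-07; edgeR, Benjamini-Hochberg). The increase with SETBP1 was 0.08 (adjusted p = 0.663) once a trend with transcript length and GC content was removed. For this trend Vegfa was given 654 bases, its longest principal transcript and the shortest of the set. Other transcript lengths were not tried, so this value depends on that choice. Both against NRAS gave -0.20 (95% interval -0.41 to 0.01, adjusted p = 0.541). The interaction of Vegfa, -0.64 (SE 0.15), had an adjusted p of 0.178, passed in DESeq2, and passed without the third SETBP1 library (-0.50, adjusted p = 0.0282).

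Bnip3, a mitophagy receptor, read 64.3, 72.0 and 70.2 CPM with empty vectors, 87.2, 83.1 and 124 with SETBP1, 58.0, 51.6 and 54.0 with NRAS, and 64.3, 64.1 and 68.2 with both. It rose by 0.51 with SETBP1 (SE 0.13, adjusted p = 0.0218, edgeR with Benjamini-Hochberg), and by 0.31 (adjusted p = 0.0248) without the third library of that group. With NRAS it read -0.34 (SE 0.13, adjusted p = 0.0683). Egln3, a prolyl hydroxylase that marks HIF alpha subunits and is itself a HIF target, read 46.0, 46.6 and 43.5 CPM with empty vectors and 36.4, 32.8 and 33.9 with both. It fell by 0.40 with both mutants (SE 0.10, adjusted p = 0.0049) and read -0.26 with NRAS (adjusted p = 0.0536).

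The promoters of 6 genes are shown because they are of HIF-linked or isozyme genes that rose with NRAS (Slc2a1, Pgk1, Ldha) or did not (Bnip3, Egln3, Ldhb). Each is the 250 bases before the annotated start, 5′ to 3′ on the gene's strand, from RefSeq on GRCm38.p6. Capitals mark the HIF response core ACGTG or GCGTG on either strand, where a run of CACGTG, the E-box, overlaps the core on both. Where a gene has several starts, the window with the most cores was taken. They lie at chr4:119108495-119108744 (+) for Slc2a1, chrX:106186850-106187099 (+) for Pgk1, chr7:46845554-46845803 (+) for Ldha, chr7:138909507-138909756 (-) for Bnip3, chr12:54203875-54204124 (-) for Egln3 and chr6:142507958-142508207 (-) for Ldhb.
Slc2a1: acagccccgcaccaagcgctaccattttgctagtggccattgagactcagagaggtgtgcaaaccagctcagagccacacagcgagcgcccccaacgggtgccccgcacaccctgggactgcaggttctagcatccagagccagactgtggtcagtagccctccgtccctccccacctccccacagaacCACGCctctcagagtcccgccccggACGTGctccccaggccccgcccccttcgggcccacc
Pgk1: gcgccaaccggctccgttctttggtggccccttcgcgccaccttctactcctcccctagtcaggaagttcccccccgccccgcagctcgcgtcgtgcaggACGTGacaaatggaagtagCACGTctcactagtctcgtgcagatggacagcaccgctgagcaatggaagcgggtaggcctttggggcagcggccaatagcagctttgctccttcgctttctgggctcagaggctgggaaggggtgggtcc
Ldha: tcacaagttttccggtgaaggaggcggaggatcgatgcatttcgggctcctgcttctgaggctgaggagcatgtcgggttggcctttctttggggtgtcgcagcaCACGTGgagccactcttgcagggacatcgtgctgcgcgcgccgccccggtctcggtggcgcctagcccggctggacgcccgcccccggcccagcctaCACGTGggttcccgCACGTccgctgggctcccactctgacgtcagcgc
Bnip3: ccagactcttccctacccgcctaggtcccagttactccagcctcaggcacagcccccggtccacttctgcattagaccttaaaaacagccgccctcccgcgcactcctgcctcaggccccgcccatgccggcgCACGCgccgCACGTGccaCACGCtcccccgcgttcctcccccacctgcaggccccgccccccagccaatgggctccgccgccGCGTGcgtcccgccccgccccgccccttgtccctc
Egln3: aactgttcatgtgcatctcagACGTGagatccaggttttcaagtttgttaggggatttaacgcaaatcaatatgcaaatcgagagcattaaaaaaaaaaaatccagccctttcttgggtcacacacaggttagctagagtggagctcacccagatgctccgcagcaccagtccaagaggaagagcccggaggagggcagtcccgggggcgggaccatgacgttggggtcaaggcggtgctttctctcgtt
Ldhb: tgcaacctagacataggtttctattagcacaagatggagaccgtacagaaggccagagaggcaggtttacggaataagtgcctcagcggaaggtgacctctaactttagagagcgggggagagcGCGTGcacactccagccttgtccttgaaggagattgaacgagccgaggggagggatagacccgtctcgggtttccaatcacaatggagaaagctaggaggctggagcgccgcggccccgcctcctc
Slc2a1 and Pgk1 each hold 2 cores in the printed bases, Ldha 3, Bnip3 4, and Egln3 and Ldhb 1 each. Over windows from 250 bases before to 50 after a start, 30 of the 33 genes of the set with a window hold a core (90.9%), against 68.1% of 8836 tested genes with one. For the E-box these shares are 18.2% and 12%. Slc2a3 had no entry. The cores were present both in genes that rose with NRAS and in Bnip3, which did not pass, and a match is a run of letters, not a measured binding site.

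A second list of 27 tested HIF-linked genes outside the set had 12 higher and 5 lower with NRAS (63% past the threshold, where 32.5% of all genes passed), with a median log2 change of 0.17. With SETBP1 4 were higher and 4 lower (29.6%, where 14.9% of all genes passed). Hmox1, heme oxygenase, which stress factors other than HIF also induce, stood at 121 ± 22.3 CPM with empty vectors, 345 ± 130 with SETBP1, 636 ± 71.5 with NRAS and 915 ± 47.8 with both (SD, n = 3). It rose by 2.40 with NRAS (SE 0.21, adjusted p = 1.45e-06, edgeR with Benjamini-Hochberg). P4ha2, a collagen prolyl hydroxylase, and Ankrd37 rose with NRAS by 1.54 and 1.33 (adjusted p = 0.0327 and 0.019), both under 20 CPM. Selenbp1 fell by 1.74 (adjusted p = 6.12e-06), from 23.4 ± 1.66 to 6.97 ± 0.531 CPM. Bnip3l, the closest relative of Bnip3, and Ndrg1 were picked after their values were seen: with NRAS they read -1.34 (adjusted p = 1.03e-06) and 1.28 (adjusted p = 1.43e-06).

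**Figure D4:**
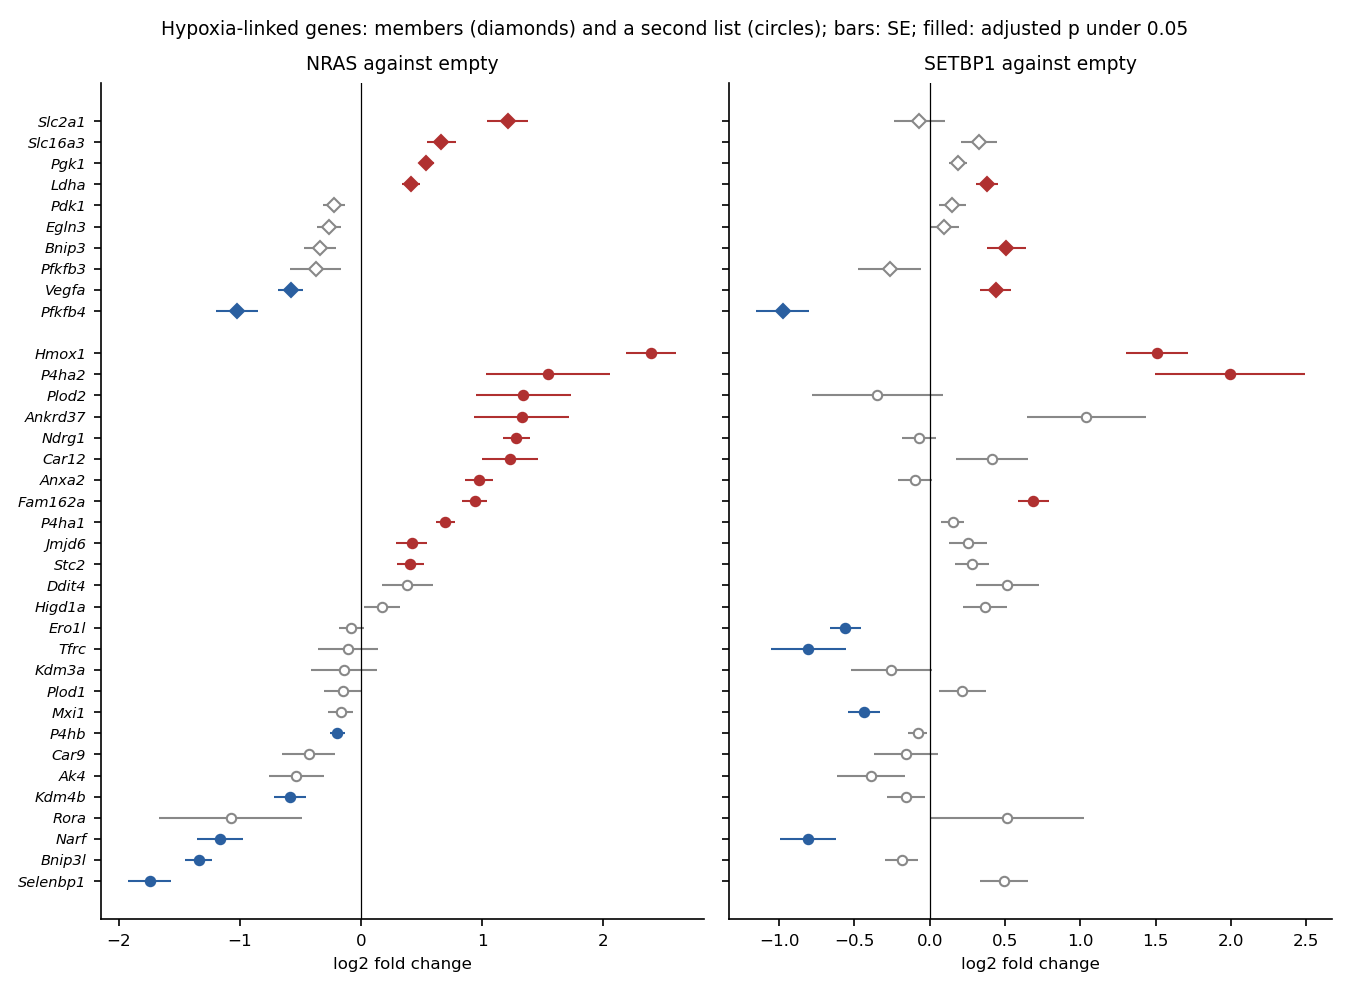
Log2 fold change (x axis) of 10 genes of the set picked for the plot (diamonds) and of genes from the second list of HIF-linked genes (circles) in NRAS and SETBP1 against empty; bars are standard errors and filled points passed. Both lists hold genes on either side of 0 with NRAS, from Hmox1 at 2.40 to Selenbp1 at -1.74.

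Of the 9 tested HIF subunits and regulators outside the set, 1 rose and 2 fell with NRAS (33.3%, where 32.5% of all genes passed). Vhl, the ubiquitin ligase subunit that removes HIF alpha, fell by 0.43 with NRAS (SE 0.11, adjusted p = 0.00784) and by 0.59 with both (adjusted p = 0.000675, edgeR with Benjamini-Hochberg), from 43.9 ± 4.91 to 29.2 ± 1.14 CPM (SD, n = 3). Os9 fell by 0.42 with NRAS (adjusted p = 0.000418). Cited2, which competes with HIF alpha for its coactivator, read -0.28 with NRAS (adjusted p = 0.0595) and fell by 0.56 with both (adjusted p = 0.00104). Hif1an, the asparaginyl hydroxylase FIH, passed in both against SETBP1 only (0.51, adjusted p = 0.0481).

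Against empty vectors 3 of 4 pentose phosphate genes fell with NRAS, all 4 fell with both mutants and none passed with SETBP1. Over all genes tested, 15.5% were lower with NRAS and 19.8% with both, and 14.9% passed in either direction with SETBP1. In summed CPM the 4 genes of the set had 2934 to 3012 with empty vectors, 2740 to 3397 with SETBP1, 2313 to 2425 with NRAS and 2087 to 2142 with both. The empty, NRAS and SETBP1+NRAS ranges did not overlap, and the SETBP1 range enclosed the empty one.

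Taldo1, transaldolase of the non-oxidative branch (chr7:141392199-141402968, + strand), read 909, 958 and 887 CPM with empty vectors, 877, 921 and 1295 with SETBP1, 638, 615 and 581 with NRAS, and 548, 552 and 573 with both. It fell 1.5-fold with NRAS (log2 change -0.59, SE 0.12, adjusted p = 0.00155) and 1.65-fold with both (-0.72, adjusted p = 0.000231; edgeR, Benjamini-Hochberg). The third SETBP1 library was the highest of the 12. Tkt, transketolase, the other enzyme of that branch (chr14:30548359-30574720, + strand), read 756, 768 and 771 CPM with empty vectors, 722, 732 and 840 with SETBP1, 609, 611 and 568 with NRAS, and 538, 561 and 545 with both. It fell by 0.36 with NRAS (SE 0.07, adjusted p = 0.00125) and by 0.48 with both (adjusted p = 9.01e-05).

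The oxidative branch makes NADPH. Pgd, 6-phosphogluconate dehydrogenase, fell by 0.23 with NRAS (SE 0.07, adjusted p = 0.0167) and by 0.42 with both (adjusted p = 0.000186, edgeR with Benjamini-Hochberg). The Pgd call with NRAS was lost without empty replicate 1 (adjusted p = 0.0528), empty replicate 2 (0.0510) or NRAS replicate 2 (0.0665). G6pdx, glucose 6-phosphate dehydrogenase and the entry step, read -0.08 with NRAS (95% interval -0.21 to 0.05) and fell by 0.29 with both (SE 0.07, adjusted p = 0.00257). Its libraries read 580, 531 and 539 CPM with empty vectors, 522, 511 and 530 with NRAS, and 431, 460 and 456 with both.

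Of 8 other tested genes of this pathway and of ribose use, 1 rose and 3 fell with NRAS, where 17% of all genes were higher and 15.5% lower. Pgls, the lactonase between G6pdx and Pgd, fell by 0.76 (SE 0.09, adjusted p = 2.21e-05), from 146 ± 9.05 to 86.2 ± 3.84 CPM (SD, n = 3). Shpk, sedoheptulokinase, and Rbks, ribokinase, fell by 1.26 and 0.97 (adjusted p = 0.00693 and 0.00124). Prps1, which turns ribose 5-phosphate into the precursor of nucleotides, went the other way, rising by 0.42 (SE 0.11, adjusted p = 0.0114, edgeR with Benjamini-Hochberg), from 117 ± 9.94 to 156 ± 1.44 CPM.

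Of 15 other tested genes of glucose supply and glycolysis, 4 rose and 2 fell with NRAS (40%, where 32.5% of all genes passed). Slc2a6, a lysosomal hexose carrier of myeloid cells, rose by 0.79 with SETBP1, 0.87 with NRAS and 1.17 with both (adjusted p = 0.0076, 0.000709 and 4.33e-05, edgeR with Benjamini-Hochberg), from 74.1 ± 2.85 to 166 ± 6.81 CPM with both (SD, n = 3). Tigar, a phosphatase that lowers fructose 2,6-bisphosphate, rose by 0.61, 0.72 and 0.78 in the same comparisons (adjusted p = 0.0073, 0.000412 and 0.000139). Slc2a8 fell by 0.89 with NRAS (adjusted p = 0.00381). Eno3, the muscle enolase, passed in both against SETBP1 only (-0.90, adjusted p = 0.0241), at 4.98 to 6.15 CPM with both and 5.88 to 13.7 with SETBP1.

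With both mutants against empty vectors, Slc2a1 rose by 1.21, Slc16a3 by 0.89, Pkm by 0.82, Pgk1 by 0.65 and Hk3 by 0.62, while Aldoc fell by 1.21 and Vegfa by 0.78 on the log2 scale. The other genes past the threshold there are given with their roles above.

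With SETBP1 alone, the genes that rose were Pfkl, Aldoa, Tpi1, Gapdh, Pgam1, Ldha, Bnip3 and Vegfa, by 0.35 to 0.51 on the log2 scale, and those that fell were Slc2a3, Hk1 and Pfkfb4. Without the third SETBP1 library 11 genes passed, 10 of them the same, with Pfkl lost (0.23, adjusted p = 0.0522) and Pgd gained. Aldoa then read 0.22, Pgam1 0.23 and Bnip3 0.31, down from 0.38, 0.35 and 0.51. When a trend with length and GC content was removed, Aldoa (0.14, adjusted p = 0.161), Gapdh (0.14, adjusted p = 0.147) and Vegfa no longer passed, and Tpi1, Pgam1 and Ldha passed at 0.21, 0.20 and 0.24, down from 0.39, 0.35 and 0.38. Pdk1, Pdk3 and Pgd were gained. In a fit of the 6 SETBP1 and empty libraries alone, only Pfkfb4 passed. Without empty replicate 1 the number was 3 (Pfkfb4, Gapdh and Ldha), and without empty replicate 3 it was 2 (Pfkfb4 and Ldha, edgeR with Benjamini-Hochberg). Calls over all genes tested dropped as well, from 14.9% in the main fit to 1.03% in the fit of 6 libraries alone. Without empty replicate 1 that share was 4.44%, and without empty replicate 3 it was 3.5%. Pfkl was lost in further refits, without empty replicate 2 (adjusted p = 0.0626), SETBP1 replicate 2 (0.0587), NRAS replicate 1 (0.0508) or 2 (0.0504), or SETBP1+NRAS replicate 1 (0.0535). Scaling to library size gave 8 higher and 5 lower, and removing the trend gave 6 and 5. Over all genes tested the former gave 774 higher and 749 lower, and the latter 691 and 588.

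With both mutants against SETBP1, the genes higher were Slc2a1 (1.28), Hk1 (0.23), Hk3 (0.75), Pfkp (0.31), Pgk1 (0.46), Pkm (0.60), Ldha (0.24), Slc16a1 (0.72) and Slc16a3 (0.56). Those lower included Ldhb (-3.17), Aldoc (-1.73), Vegfa (-1.22), Taldo1 (-0.89), Bnip3 (-0.58), Egln3 (-0.50), Pdk3 (-0.49), Tkt (-0.48), Pfkl (-0.43), Pgd (-0.25), Pdk1 (-0.25) and G6pdx (-0.18), all as log2 changes. Without the third SETBP1 library 21 passed, 19 of them the same: Hk1 and G6pdx were lost, Pfkm and Gapdh gained, and Bnip3 read -0.38. With the length and GC trend removed, Pfkp (0.15, adjusted p = 0.117), Pgd (-0.14, adjusted p = 0.0541) and G6pdx (-0.14, adjusted p = 0.0568) no longer passed, and Pdk1 read -0.50 (adjusted p = 0.00247). Tpi1, Gapdh and Hif1a were gained. In a fit of these 6 libraries alone Hk1, Ldha, Pdk1, G6pdx and Pgd did not pass (adjusted p 0.0515 to 0.114). There 28.9% of all genes passed, against 42.4% in the main fit. Under library size scaling Hk1 read 0.15 (adjusted p = 0.2). Ldha was lost without SETBP1 replicate 1 (adjusted p = 0.0797) or 2 (0.0639) or SETBP1+NRAS replicate 1 (0.0529) or 3 (0.0573). Hk1 was lost without any empty or SETBP1+NRAS replicate and without SETBP1 replicate 2 or 3 (0.0526 to 0.106), its log2 change staying between 0.19 and 0.25 in those refits. G6pdx was lost without SETBP1 replicate 3, NRAS replicate 1 or 2, or any SETBP1+NRAS replicate (0.0568 to 0.149).

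Markers of other blood cells moved with the groups. Over all genes tested, 8.31% were higher and 6.55% lower with SETBP1, 17% and 15.5% with NRAS, and 20.8% and 19.8% with both. Of 14 tested late neutrophil genes, 11 fell with SETBP1, 8 fell and 2 rose with NRAS, and 11 fell with both. Their summed level was 17210 to 18910 CPM with empty vectors, 8314 to 12020 with SETBP1, 7734 to 9357 with NRAS and 2951 to 3602 with both. Of 8 tested granule genes of myeloid progenitors, 7 fell with NRAS, the sum going from 26490 to 29160 CPM with empty vectors to 11630 to 13080. With SETBP1 4 of these granule genes fell and 0 rose, at a sum of 19570 to 21460 CPM. Of 17 monocyte and macrophage genes, 8 rose and 1 fell with SETBP1 and 3 rose and 9 fell with NRAS, with sums of 15660 to 18030 CPM with empty vectors, 20070 to 37600 with SETBP1 and 7901 to 8799 with NRAS. Of 12 tested mast cell and basophil genes, 10 fell with NRAS, from 3256 to 3326 CPM to 804 to 1348. With SETBP1 8 of these 12 fell and 0 rose, at a sum of 1749 to 2485 CPM. With both mutants the sums were 7279 to 7611 CPM for progenitor granules, 8130 to 9617 for monocytes and macrophages, and 448.5 to 629 for mast cells and basophils. In both against NRAS, 0.528% of all genes were higher and 1.38% lower. There 11 of 14 late neutrophil, 5 of 8 granule and 3 of 12 mast cell and basophil genes fell. Of the 17 monocyte and macrophage genes 4 rose and 2 fell. Of 21 proliferation genes, 6 rose and 0 fell with NRAS (28.6% higher, where 17% of all genes were higher). Their sum went from 5873 to 6018 CPM with empty vectors to 6551 to 6621, and 0 of them passed in both against NRAS. With SETBP1 3 of the 21 fell and 0 rose (14.3%, where 6.55% of all genes were lower), at a sum of 5364 to 5626 CPM.

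Most markers of other lineages were too low to test, with 3 genes tested in each of the erythroid, lymphoid and stromal lists. The summed level of the stromal and endothelial list was 102.6 to 119 CPM with empty vectors, 75.1 to 84.3 with SETBP1, 183 to 288.5 with NRAS and 185.6 to 204.1 with both, and all 3 tested genes rose with NRAS. The erythroid sum was 34.5 to 36.5 CPM with empty vectors, 20.4 to 25.1 with SETBP1, 19.4 to 26.8 with NRAS and 5.11 to 8.32 with both. The B and T cell sum was 33.6 to 37.4 CPM with empty vectors, 36.5 to 43.4 with SETBP1, 27.0 to 31.8 with NRAS and 16.5 to 21.5 with both. In the erythroid list, Hba-a1, Hba-a2, Hbb-bs, Hbb-bt and Slc4a1 had 0 counts in every library. So did Pax5, Cd3e and Cd8a in the lymphoid list, and Col3a1, Pdgfra and Cxcl12 in the stromal list. The other genes of these lists in the count table had counts in some library. Sequence that these marker genes share with other genes was not examined. The part of these cell markers in the changes of the glycolysis, pentose phosphate and hypoxia genes was not tested.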

How the data were processed

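RNA of mouse bone marrow was sequenced in 12 libraries, 3 in each of 4 groups set by the labels. The authors deposited raw counts, as integers, in a single table of genes by libraries. The submitters' processing notes name STAR, DESeq2 and the mm10 build, without roles or versions; the counting tool, annotation and strand setting are not given in the sources used here. SMART-Seq libraries from small RNA amounts were used, per the labels' protocols.

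From these counts, genes were kept by filterByExpr (minimum count 10, minimum total 15), which left 10993 genes with 99.9% of the counts. TMM factors set the effective library sizes used in tests and in CPM. A quasi-likelihood F test (edgeR 4.0.16, R 4.3.3) took all 12 libraries in a single model with 1 mean per group. Two-sided p-values received Benjamini-Hochberg adjustment across the tested genes, and 0.05 was the threshold. Intervals are the log2 change ± 1.96 SE. Levels per kilobase use the longest principal transcript of GENCODE M21 (GRCm38), and shared sequence was counted in stretches of 50 bases. Steps were tested on simulated data.

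All 34 genes are accounted for: those past the threshold are named in each comparison, with values per library for at least the 6 with the largest change (mean count of 20 or more in the highest group). Each other list contributes up to 4 genes past the threshold, by size of change, that average 50 counts or more in their highest group. The genes, lists and tests were chosen with earlier results of these data known. Alternatives were DESeq2 1.42.0, limma-voom (limma 3.58.1), other scalings and filters, a replicate block, fits of the compared groups alone, and leaving out each library. Removal of a trend with transcript length and GC content was chosen after seeing the data. 1 gene of the second list of HIF-linked genes enters the counts of that list and is not reported here.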

Additional observations from a re-analysis of the deposited data

How the results depend on the processing

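Over 1656 values of called genes under other settings, 1544 kept direction and threshold, 112 lost the threshold and 0 reversed. All 15 of Aldoc, Gapdh, Hk3, Ldha, Ldhb, Pdk3, Pfkfb4, Pfkp, Pgk1, Pkm, Slc16a3, Slc2a1, Taldo1, Tkt and Vegfa passed in NRAS against empty under every setting run, as did 20 of 21 genes for both mutants against empty (Pgam1 was lost without empty replicate 3 and at an adjusted p of 0.01) and 15 of 21 for both against SETBP1. For SETBP1 against empty only Pfkfb4 did. The number of genes past the threshold there was 11, and 1 with only the groups compared and 3 at an adjusted p of 0.01; leaving out 1 library gave 2 to 13. For both against NRAS it was 1, and 2 with DESeq2, 3 with library size scaling, 5 with only the groups compared, 0 at an adjusted p of 0.01 and 0 to 6 when 1 library was left out. For the interaction it was 0, and 1 with DESeq2 and 0 to 2 when 1 library was left out, 2 being without SETBP1 replicate 3. In the other comparisons leaving out 1 library gave 15 to 25 (NRAS against empty), 20 to 25 (both against empty) and 17 to 21 (both against SETBP1). Over these refits 24.1% to 47%, 32.8% to 53.7% and 33% to 46.5% of all genes passed, in the same order. For SETBP1 against empty the share of all genes ran from 3.5% to 28.7%, with 1.03% when only the groups were compared. For both against NRAS it ran from 0.834% to 7.52%, with 8.37% when only the groups were compared. The cause was not tested, beyond the lower counts that a threshold of 0.01 gives by construction. Scaling to library size moved the median of all genes by -0.093 for NRAS and -0.12 for both against empty, and changed the split of all calls for NRAS from 1868 higher and 1708 lower to 1379 and 2265 (both against empty from 2282 and 2180 to 1656 and 2908, both against SETBP1 from 2293 and 2368 to 1720 and 2888). With the replicate number as a block (replicate block) the counts were 9, 18, 21, 1, 20 and 0 for SETBP1, NRAS and both against empty, then for both mutants against each single mutant (NRAS first), then for the interaction; the block ended the SETBP1 calls of Slc2a3 and Pfkl and the call of G6pdx against SETBP1. Same-numbered libraries correlated in their deviations between -0.119 and 0.142, so the numbers were not taken as pairs. Gpi1, Pfkm, Pfkfb3 and Hif1a, which passed in no comparison of the main fit, passed in some under other settings. Low counts limit Aldoc, Ldhb and Pfkfb4 most (lowest libraries at 23, 12 and 86 counts).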
